A study of Mus musculus with 12 samples.

Results

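The 10 genes described here encode structural parts of the basement membrane: the laminin chains Lama2, Lama4, Lamb1, Lamb2 and Lamc1, the nidogens Nid1 and Nid2, the heparan sulphate proteoglycan perlecan (Hspg2) and the collagen IV chains Col4a1 and Col4a2. They were chosen by name, as every row of the deposited 3′ UTR count table with one of these symbols. Each gene had 1 row, so 10 rows of 20586 (10 genes of 19889 with a symbol) were examined. The RNA came from 3T3-L1, a mouse cell line of preadipocytes that become adipocytes in culture, and was recovered by immunoprecipitation with an antibody to CPEB4 (CPEB4 IP) or with a control immunoglobulin (IgG IP). Total lysate RNA (Input) was sequenced beside them, with 4 libraries in each of the 3 groups. Per the labels, every group came from cells at day 8 of differentiation that had received 500 µM free fatty acids for 24 h, with palmitic acid at 300 µM and oleic and linoleic acid at 100 µM each. Until day 2, the medium held rosiglitazone (2 µM), insulin (10 µg/mL), dexamethasone (1 µM) and IBMX (0.5 mM), and from then on insulin. No group without fatty acids, without differentiation or with altered CPEB4 was analysed here, so the comparisons are between fractions of one cell state. The comparison of the CPEB4 IP with the IgG IP asks which 3′ UTRs were recovered with CPEB4 over the background of a precipitation.

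Basement membranes are thin sheets of extracellular matrix that surround every adipocyte and underlie endothelium and epithelium. Laminins are trimers of an alpha, a beta and a gamma chain that join inside the cell and polymerise outside it, and collagen IV trimers form a second, covalently linked network. Nidogens and perlecan tie both networks together. CPEB4 is an RNA-binding protein that recognises cytoplasmic polyadenylation elements in 3′ UTRs and regulates poly(A) tail length and translation.

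Library totals were 858028 to 1578084 counts in Input, 1114911 to 1159188 in CPEB4 IP and 88013 to 622976 in IgG IP. Levels are given as CPM, counts per 1e6 of a library size scaled by TMM, a method that balances libraries on the bulk of their features. A floor of 3 counts corresponded to between 1.95 and 23.7 CPM, with the coarsest steps in the IgG IP. The 3′ UTR of Lars2 alone held 28.6% to 63.9% of IgG IP counts, 4.60% to 23.7% of CPEB4 IP counts and 7.79% to 14.1% of Input counts. Replicates 1 and 2 carry library numbers from one series and replicates 3 and 4 from another, and libraries of one group were more alike within these pairs than across them. Values within each pair are therefore given beside the main results. Input alone was poly(A) selected, so precipitation and library preparation cannot be told apart in any comparison with Input. The 6 adipocyte markers all had counts, with summed levels of 10382 to 17817 CPM in Input, 12810 to 21418 CPM in IgG IP and 18760 to 21726 CPM in CPEB4 IP. Single markers did not all follow the sum, and mean Adipoq was 1115, 254 and 435 CPM in Input, IgG IP and CPEB4 IP. In the same order, Plin1 averaged 466, 104 and 139 CPM and Fabp4 3271, 2642 and 6155 CPM. The 7 fibroblast and preadipocyte markers summed to 1091 to 1918 CPM in Input, 324 to 751 CPM in IgG IP and 198 to 420 CPM in CPEB4 IP. The 6 endothelial markers, of a cell type that makes the same laminins and collagens, summed to 0 to 73.0 CPM in Input, with Tek and Emcn at 0. In bulk RNA, fewer cells of a type and less RNA per cell cannot be told apart.

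In the CPEB4 IP, the 3′ UTRs of the laminin chains Lamc1 and Lamb1 and of the collagen IV chain Col4a1 were more abundant than in the IgG IP. The increases were between 2.59-fold and 3.46-fold. Those of Col4a2 and Nid1 were less abundant in all 4 replicates, and neither passed the threshold. The beta chain gene Lamb2 and the alpha chain gene Lama4, both plainly present in Input, were at or near 0 counts in both precipitates. Adjusted p-values of genes are from edgeR (quasi-likelihood test, Benjamini-Hochberg over all 8680 tested features), and the threshold was 0.05. Lama2 and Nid2 had too few counts to be tested.

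Of the 8 tested genes, 3 were higher and 0 lower in the CPEB4 IP than in the IgG IP, where 5.88% of all features were called (4.57% higher and 1.3% lower). At an unadjusted p under 0.05, 3 were higher and 3 lower, beside 1283 higher and 558 lower of all 8680 features. Of the 3 lower, Lamb2 rests on 0 against 2 counts and cannot be read as lower. DESeq2's Wald test called 3 higher and 2 lower (Col4a2 and Nid1), beside 496 and 507 of all 8680 features. With the replicate number as a block edgeR called 3 higher and 1 lower (Col4a2), and the number of all features called there is not given here. With the library number series as a block the same genes were called, beside 661 higher and 220 lower of all 8680 features. The 4 libraries of each group did not overlap for 5 of the 8 (3 higher, 2 lower), beside 29.1% of all features (23.2% higher and 5.91% lower). Over the 8, the median log2 fold change was 0.20, and that of all features was 0.24. Over the 7 without Lamb2 it was 0.88, which is not set against 0.24, since no feature at the floor was left out there. Library scaling moved this comparison: scaled by DESeq2 size factors the median of all features was -0.03, and by library totals 0.52, and 54% and 93.3% of called features were higher, against 77.8% with TMM. The signs of the 8 genes were the same under these scalings, except that of Lama4 with library totals (0.0076). Against Input, the CPEB4 IP held 3 genes at a higher and 2 at a lower level, beside 53.9% of all features called (27.6% higher and 26.3% lower). Its libraries did not overlap those of Input for the same 5 genes, beside 55.1% of all features (30.9% higher and 24.2% lower). The IgG IP held 2 at a higher and 4 at a lower level than Input, beside 41.4% of all features called (17.5% higher and 23.9% lower). The same 6 genes did not overlap, beside 38.6% of all features (15.9% higher and 22.7% lower). Median log2 fold changes of the 8 were -0.59 and -0.94 in these comparisons, against 0.29 and -0.07 over all features.

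**Figure D1:**
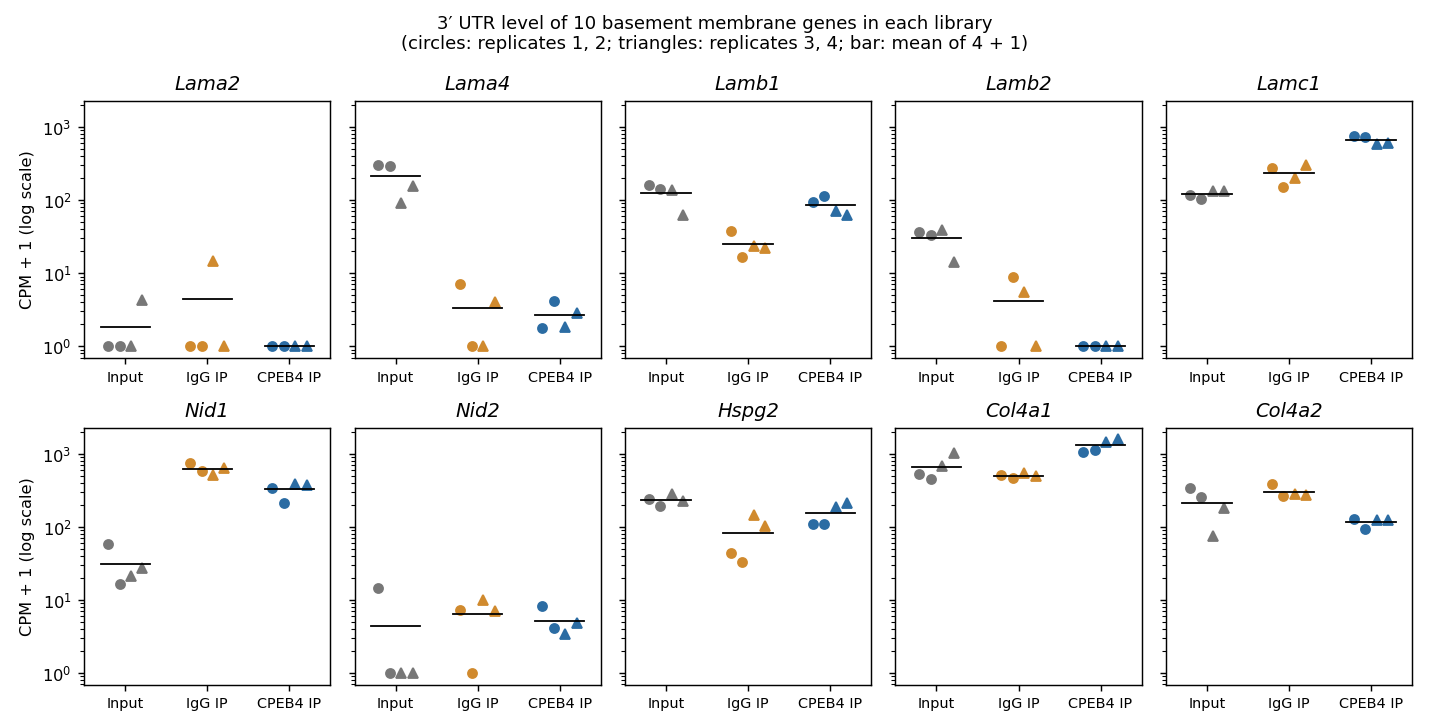
Level of each of the 10 genes in every library, as CPM plus 1 on a log axis, by group, with circles for replicates 1 and 2, triangles for replicates 3 and 4 and bars at the mean of 4 plus 1. Lamc1 and Col4a1 sit highest in the CPEB4 IP, Nid1 in the IgG IP, and Lama4 and Lamb2 in Input.

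**Figure D2:**
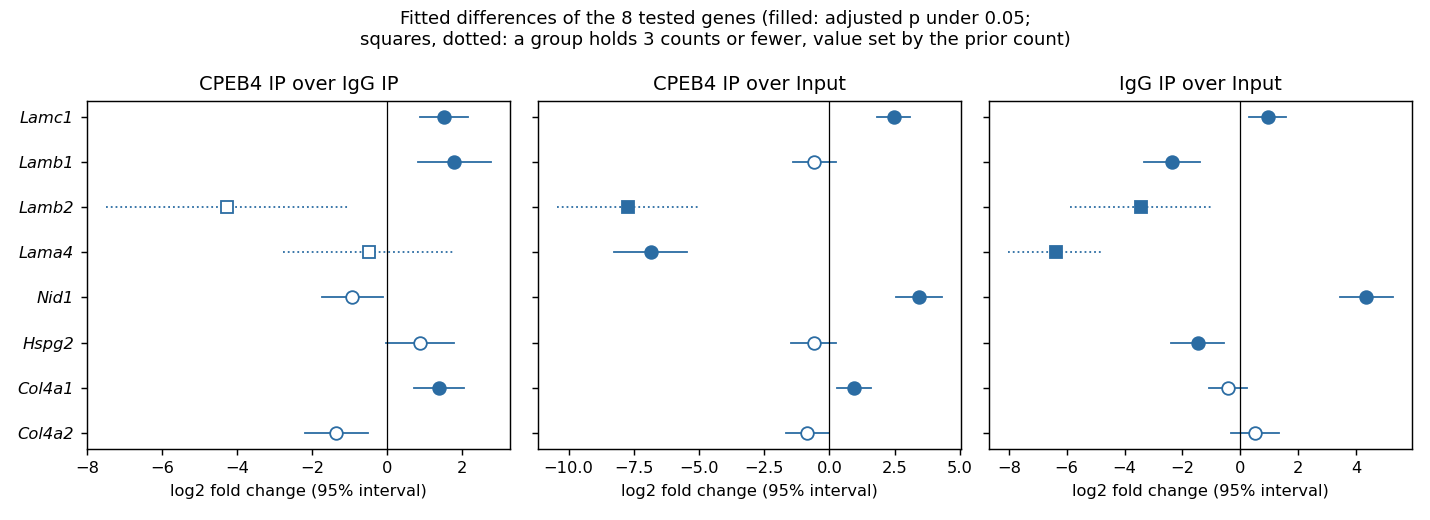
Fitted log2 fold changes with 95% intervals for the 8 tested genes in the 3 comparisons, filled where the adjusted p was under 0.05, with squares and dotted lines where a group held 3 counts or fewer and the value depends on the prior count. Over IgG IP the filled points are Lamc1 at 1.52, Lamb1 at 1.79 and Col4a1 at 1.37.

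Lamc1 encodes the gamma chain that most laminin trimers share. Its counted 3′ UTR (ENSMUST00000027752) spans 2551 bases on the minus strand of mm10 chromosome 1, 153218922 to 153221472. Lamc1 stood at 739, 729, 580 and 606 CPM in CPEB4 IP replicates 1 to 4, at 273, 149.9, 196 and 300.02 CPM in the IgG IP and at 116, 103, 132 and 131 CPM in Input. The 3 groups did not overlap, with the CPEB4 IP highest, the IgG IP next and Input lowest. The CPEB4 IP mean was 663 ± 82.1 CPM (SD, n = 4), against 120 ± 13.7 CPM in Input and 230 ± 69.1 CPM in the IgG IP. Over IgG IP the fitted log2 difference was 1.52 (SE 0.30, adjusted p = 0.00786), at percentile 84.9 of all features. It was 1.78 within replicates 1 and 2 and 1.25 within replicates 3 and 4, a difference that did not pass (unadjusted p = 0.266). The call was lost without IgG IP replicate 3 (1.32, adjusted p = 0.0862) or IgG IP replicate 4 (1.51, adjusted p = 0.0582). It was also lost without replicate 1, 2 or 3 of all groups (adjusted p from 0.055 to 0.101). Over Input, Lamc1 was higher by 2.46 in log2 units in the CPEB4 IP (SE 0.31, adjusted p = 6.57e-06) and by 0.94 in the IgG IP (SE 0.30, adjusted p = 0.0192). The IgG IP call was lost without IgG IP replicate 3 or 4, CPEB4 IP replicate 4, or replicate 1 or 4 of all groups (adjusted p from 0.068 to 0.233). Library totals, no filter and only the 8 libraries compared ended it too (adjusted p = 0.135, 0.21 and 0.06).

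Lamb1 and Lamb2 encode alternative beta chains that take the same place in a laminin trimer. The 3′ UTR of Lamb1 (ENSMUST00000002979) is 151 bases long, on the plus strand of mm10 chromosome 12, 31329494 to 31329644. That of Lamb2 (ENSMUST00000065014) is 110 bases long, on the plus strand of mm10 chromosome 9, 108490421 to 108490530. Lamb1 stood at 93.1, 111, 70.1 and 61.5 CPM in CPEB4 IP replicates 1 to 4, at 37.2, 15.8, 22.8 and 21.2 CPM in the IgG IP and at 160, 141, 138 and 61.9 CPM in Input. Each CPEB4 IP library was above each IgG IP library, while CPEB4 IP and Input overlapped through Input replicate 4. Lamb1 was higher by 1.79 in log2 units over IgG IP (SE 0.46, adjusted p = 0.0301, 95% interval 0.82 to 2.76). The wide interval goes with 20 counts over the 4 IgG IP libraries, against 407 in the CPEB4 IP. Within replicates 1 and 2 the value was 1.89 and within replicates 3 and 4 it was 1.58. The call was lost under 15 of 27 alternatives, which moved the log2 value between 1.35 and 2.11. They include leaving out the Lars2 feature (1.67, adjusted p = 0.0667), no filter (adjusted p = 0.0885) and DESeq2 size factors (adjusted p = 0.0728). Single libraries whose removal ended it were CPEB4 IP replicates 1 and 2, IgG IP replicates 2, 3 and 4 and Input replicate 2 (adjusted p from 0.0687 to 0.217), as did removing any replicate number (0.0813 to 0.213). Against Input, Lamb1 was lower in the IgG IP, at a log2 value of -2.36 (SE 0.46, adjusted p = 0.000711). In the CPEB4 IP it did not pass, at -0.57 (95% interval -1.40 to 0.25, adjusted p = 0.229).

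Lamb2 stood at 36.0, 31.9, 37.5 and 13.0 CPM in Input, on 140 counts. No CPEB4 IP library held a count, and the IgG IP held 1 count each in replicates 2 and 3. Lamb2 was at least 45.1-fold lower in the CPEB4 IP than in Input, taking a floor of 3 counts over the group (adjusted p = 0.000196). The counts per scaled library size in Input were 11.8 times those in the IgG IP (exact 95% counting interval 3.21 to 98.6, adjusted p = 0.027). That call was lost without IgG IP replicate 1 or 4, Input replicate 1 or 2, or replicate 1, 3 or 4 of all groups (adjusted p from 0.0548 to 0.131). The precipitates could not be compared with each other, since both lay at or under the floor. Every CPEB4 IP library thus carried Lamb1 reads and no Lamb2 reads. The IgG IP held 20 Lamb1 and 2 Lamb2 counts, whose ratio overlapped that of Input.

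Lama4 encodes the alpha chain typical of laminins in fat, endothelium and mesenchyme, and Lama2 the alpha chain best known from muscle and nerve. The 3′ UTR of Lama4 (ENSMUST00000019992; 155 bases, plus strand, mm10 chromosome 10, 39110034 to 39110188) stood at 304, 288, 91.1 and 153 CPM in Input. Input replicates 1 and 2 were the high ones. CPEB4 IP replicates 1 to 4 held 1, 4, 1 and 2 counts of Lama4 and the IgG IP libraries 1, 0, 0 and 1, so that no precipitate overlapped Input. Lama4 was lower in the CPEB4 IP than in Input, at a log2 value of -6.85 (SE 0.66, adjusted p = 5.22e-07). In Input it was 88.5 times as high as in the IgG IP (exact 95% counting interval 24.4 to 732, adjusted p = 1.11e-05). CPEB4 IP over IgG IP gave a counting ratio of 0.70 (exact 95% interval 0.14 to 6.76), which leaves the direction undetermined at this depth. Lama2 (ENSMUST00000092639; 207 bases, minus strand, mm10 chromosome 10, 26981288 to 26981494) had 8 counts in all, 5 of them in Input replicate 4 and 3 in IgG IP replicate 3. The CPEB4 IP held 0, and no direction can be read from counts in single libraries.

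Nid1 was most abundant in the control precipitate, unlike Lamc1, Lamb1, Lamb2 and Lama4. Nidogen-1 bridges laminin and collagen IV, and nidogen-2 can do so as well. The 3′ UTR of Nid1 (ENSMUST00000005532) is 2208 bases long, on the plus strand of mm10 chromosome 13, 13510068 to 13512275. Nid1 stood at 745, 584, 506 and 642 CPM in IgG IP replicates 1 to 4, at 342, 209, 379 and 371 CPM in the CPEB4 IP and at 57.7, 15.5, 20.2 and 26.1 CPM in Input. The groups did not overlap in any pairing. Both precipitates were above Input, the IgG IP by 4.36 in log2 units (SE 0.44, adjusted p = 2.09e-06, percentile 98.2 of all features) and the CPEB4 IP by 3.43 (SE 0.42, adjusted p = 5.43e-06). CPEB4 IP over IgG IP was -0.93 (SE 0.38, 95% interval -1.73 to -0.12), with an unadjusted p of 0.0265 and an adjusted p of 0.164. It was -1.27 within replicates 1 and 2 and -0.62 within replicates 3 and 4.

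Nid2 (ENSMUST00000022340; 591 bases, plus strand, mm10 chromosome 14, 19811197 to 19811787) was not tested. Its 18 Input counts all came from replicate 1, while the CPEB4 IP libraries held 9, 4, 3 and 4 counts and the IgG IP libraries 1, 0, 2 and 2. The feature overlaps 2700060E02Rik on the opposite strand, and the use of strand in counting is not given in the sources used here, so its reads are uncertain. None of the other 9 counted 3′ UTRs overlapped another one of the table.

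Perlecan, the product of Hspg2, carries heparan sulphate chains that bind growth factors as well as laminin. Its 3′ UTR (ENSMUST00000030547) covers 966 bases on the plus strand of mm10 chromosome 4, 137569665 to 137570630. Hspg2 stood at 236, 192, 278 and 228 CPM in Input, at 108, 109, 185 and 214 CPM in the CPEB4 IP and at 43.4, 31.6, 146 and 103 CPM in the IgG IP. Replicates 3 and 4 were the high ones in both precipitates. The IgG IP was below Input at -1.48 on the log2 scale (SE 0.44, adjusted p = 0.0125). This call was lost without IgG IP replicate 1 (-1.23, adjusted p = 0.0555) and without replicate 1 of all groups (-1.25, adjusted p = 0.0824). It was -2.49 within replicates 1 and 2 and -1.03 within replicates 3 and 4 (unadjusted p of the difference 0.0179, adjusted p = 0.206). CPEB4 IP over IgG IP was 0.88 (95% interval -0.04 to 1.79, adjusted p = 0.259), positive in all 4 replicates but with overlapping groups. CPEB4 IP over Input was -0.60 (95% interval -1.47 to 0.26, adjusted p = 0.228).

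The partner chains of collagen IV had log2 values of opposite sign over IgG IP, of which that of Col4a1 passed the threshold and that of Col4a2 did not. Col4a1 and Col4a2 encode the chains of the most widespread collagen IV trimer and lie head to head on mm10 chromosome 8. In RefSeq's annotation of GRCm38.p6, Col4a1 occupies 11198423 to 11312889 on the minus strand and Col4a2 11312805 to 11449287 on the plus strand, an overlap of 85 bases at their starts. The counted 3′ UTRs lie at the far ends of this pair. That of Col4a1 (ENSMUST00000033898) covers 1378 bases from 11198423 to 11199800 and that of Col4a2 (ENSMUST00000033899) 971 bases from 11448317 to 11449287.

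Col4a1 stood at 1044, 1120.3, 1451 and 1572 CPM in CPEB4 IP replicates 1 to 4, at 503, 458, 542 and 500.03 CPM in the IgG IP and at 530, 445, 677 and 1016 CPM in Input. All CPEB4 IP libraries were above all others, and the IgG IP libraries lay within a narrow band. Col4a1 was higher in the CPEB4 IP by 1.37 in log2 units over IgG IP (SE 0.31, adjusted p = 0.0175). Within replicates 1 and 2 the value was 1.17 and within replicates 3 and 4 it was 1.54. The call was lost without IgG IP replicate 3 (1.26, adjusted p = 0.122) or IgG IP replicate 4 (adjusted p = 0.154), with DESeq2 size factors (1.07, adjusted p = 0.0504), and without any one replicate number (adjusted p from 0.0825 to 0.118). Over Input it was higher by 0.96 (SE 0.31, adjusted p = 0.0153), which was lost without CPEB4 IP replicate 4, IgG IP replicate 3 or 4, or replicate 2 or 3 of all groups (adjusted p from 0.0615 to 0.0984). It was also lost with DESeq2 size factors (adjusted p = 0.0528), library totals (0.0508), no filter (0.122) and a mean count of at least 50, at 0.46 (0.165). IgG IP and Input overlapped, at -0.41 (95% interval -1.07 to 0.24, adjusted p = 0.31), and the sign turned to 0.11 without Input replicate 4.

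Col4a2 stood at 128, 92.0, 125 and 124 CPM in the CPEB4 IP, at 385, 260.4, 283 and 273 CPM in the IgG IP and at 335, 254, 73.9 and 178 CPM in Input. Each CPEB4 IP library was below each IgG IP library, and Input was spread over both. CPEB4 IP over IgG IP was -1.36 (SE 0.40, 95% interval -2.20 to -0.51) with an unadjusted p of 0.00356 and an adjusted p of 0.0549, just outside the threshold. It was -1.56 within replicates 1 and 2 and -1.16 within replicates 3 and 4. With the replicate number as a block the value was -1.33 (adjusted p = 0.0424), and 9 of 27 alternatives passed. CPEB4 IP over Input was -0.84 (adjusted p = 0.0771), with -1.42 within replicates 1 and 2 and -0.03 within replicates 3 and 4 (unadjusted p of the difference 0.0316, adjusted p = 0.232). Fitted alone, replicates 3 and 4 gave 0.10. IgG IP over Input was 0.51 (95% interval -0.32 to 1.34, adjusted p = 0.319).

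Ratios of partner genes inside one library do not depend on how libraries are scaled. For each library, 0.5 was added to both counts, and the log2 ratios of 4 gene pairs were compared in the 3 comparisons by two-sided exact permutation tests of 4 against 4 libraries. These tests treat the libraries of a group as exchangeable and take no account of the library number series. The smallest p of this design is 0.0286, and over the 12 tests none passed an adjusted p of 0.05. With so high a smallest p, an adjusted p under 0.05 needs most of the 12 tests to reach it. No conclusion is therefore drawn from none passing. The 12 also include ratios set by the added 0.5 that are not compared below, and these enter every adjusted p. Col4a1 to Col4a2 was 8.16, 12.1, 11.6 and 12.6 in CPEB4 IP replicates 1 to 4 and 1.30, 1.75, 1.91 and 1.83 in the IgG IP. The CPEB4 IP libraries were far above the IgG IP libraries, by 6.54-fold in the geometric mean (exact p = 0.0286, adjusted p = 0.0686). In Input the same ratio was 1.58, 1.75, 9.11 and 5.71. Input replicates 1 and 2 thus lay in the range of the IgG IP and replicate 3 within that of the CPEB4 IP. CPEB4 IP over Input was 1.66 on the log2 scale with overlapping groups (exact p = 0.0571, adjusted p = 0.114), and IgG IP over Input was -1.04 (exact p = 0.257, adjusted p = 0.309).

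Lamb1 to Lamb2 was 4.40, 4.38, 3.64 and 4.66 in Input, the narrowest spread of any pair and group. The CPEB4 IP held 116, 141, 85 and 65 Lamb1 counts against 0 of Lamb2, so its ratios of 131 to 283 depend on the added 0.5. IgG IP ratios of 1.67 to 15 rest on 20 Lamb1 and 2 Lamb2 counts. At 2 to 7 Lamb1 counts a library, an IgG IP ratio could not have reached the CPEB4 IP range even with Lamb2 at 0, so the precipitates were not compared. The CPEB4 IP was above Input by 5.53 on the log2 scale (exact p = 0.0286, adjusted p = 0.0686). IgG IP over Input was 0.47 (exact p = 0.429, adjusted p = 0.468), with overlapping groups. Nid1 to Nid2 overlapped between all groups, at -0.14, 1.49 and 1.64 for CPEB4 IP over IgG IP, CPEB4 IP over Input and IgG IP over Input (exact p from 0.0857 to 0.8). Nid2 was at 0 counts in Input replicates 2, 3 and 4 and in IgG IP replicate 2, so their ratios depend on the added 0.5. Lama2 to Lama4 was at the floor in both precipitates, so its ratios there are set by the added 0.5 and are not compared.

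**Figure D3:**
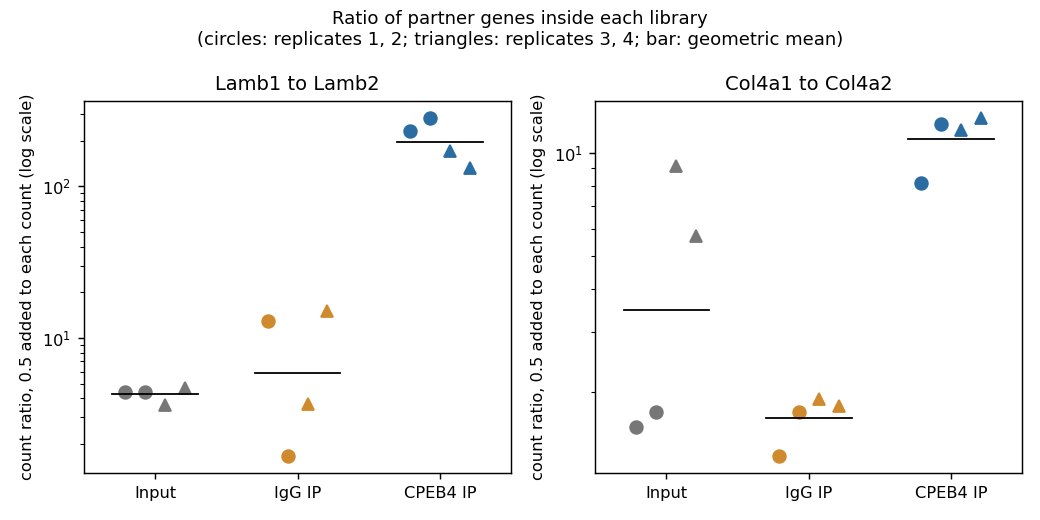
Ratio of Lamb1 to Lamb2 and of Col4a1 to Col4a2 counts in each library, with 0.5 added to each count, on log axes, with circles for replicates 1 and 2, triangles for replicates 3 and 4 and bars at the geometric mean; Lamb2 is at 0 in the CPEB4 IP, so those ratios depend on the added 0.5. Col4a1 to Col4a2 lies between 8.16 and 12.6 in the CPEB4 IP and between 1.30 and 1.91 in the IgG IP, and Input spans 1.58 to 9.11.

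Levels per kilobase of counted 3′ UTR placed the genes in a different order in each group. In Input, Lama4 was first at 1350 ± 670 CPM per kilobase (SD, n = 4), followed by Lamb1 at 828 ± 286, Col4a1 at 484 ± 183, Lamb2 at 269 ± 103, Hspg2 at 242 ± 36.7 and Col4a2 at 216 ± 114. Each overlapped the next in its range over libraries. Lamc1 at 47.2 ± 5.37 and Nid1 at 13.5 ± 8.62 were separate from the gene above them. The first places of Lama4 and Lamb1 rest on division by lengths of 155 and 151 bases. Without it, Col4a1 had the highest Input mean at 667 CPM, against 209 CPM for Lama4 and 125 CPM for Lamb1. In the CPEB4 IP the order began with Col4a1 at 941 ± 185 CPM per kilobase, Lamb1 at 556 ± 148, Lamc1 at 260.1 ± 32.2 and Hspg2 at 159 ± 55.4, none of which overlapped the next among these. Hspg2, Nid1 at 147 ± 35.8 and Col4a2 at 120.5 ± 17.2 overlapped. Lama4, first in Input, was at 10.8 ± 7.16 CPM per kilobase in the CPEB4 IP. In the IgG IP, Col4a1 at 363 ± 25.1, Col4a2 at 309 ± 58.8 and Nid1 at 280.5 ± 45.5 led, and every gene overlapped the next.

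The length of the counted 3′ UTR moved with the comparisons against Input. Lama4, Lamb1 and Lamb2 have 3′ UTRs under 250 bases, and over the 769 tested features of this size the median log2 fold change was -4.12 for CPEB4 IP over Input and -3.77 for IgG IP over Input. Of these features, 80.9% were called lower in the CPEB4 IP and 79.3% lower in the IgG IP. Over the 2907 features of 2000 bases or more, which include Nid1 and Lamc1, the medians were 1.19 and 1.04. For CPEB4 IP over IgG IP the medians of these classes were -0.40 and 0.13. Across all 8680 features, Spearman's rho of length with the log2 fold change was 0.477, 0.591 and -0.0146 for CPEB4 IP over Input, IgG IP over Input and CPEB4 IP over IgG IP. Across the 8 genes it was 0.81, 0.881 and 0.238, given as descriptions of features that share libraries. The length classes were chosen after the values were seen, and the part of length in the differences from Input was not tested.

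Within its own length class, Lamb1 lay at percentile 88.8 for CPEB4 IP over Input, although its log2 value was -0.57, and at percentile 85.3 for CPEB4 IP over IgG IP. Lama4, with a 3′ UTR of nearly the same length, lay at percentiles 7.28 and 47.9. Lamc1 lay at percentile 47.3 of its class for IgG IP over Input and at 92.6 for CPEB4 IP over IgG IP. Nid1, of similar length, lay at 97.6 and 14.6. Col4a2 and Hspg2 differ by 5 bases in length, and their percentiles for CPEB4 IP over IgG IP were 10.2 and 64.9.

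**Figure D4:**
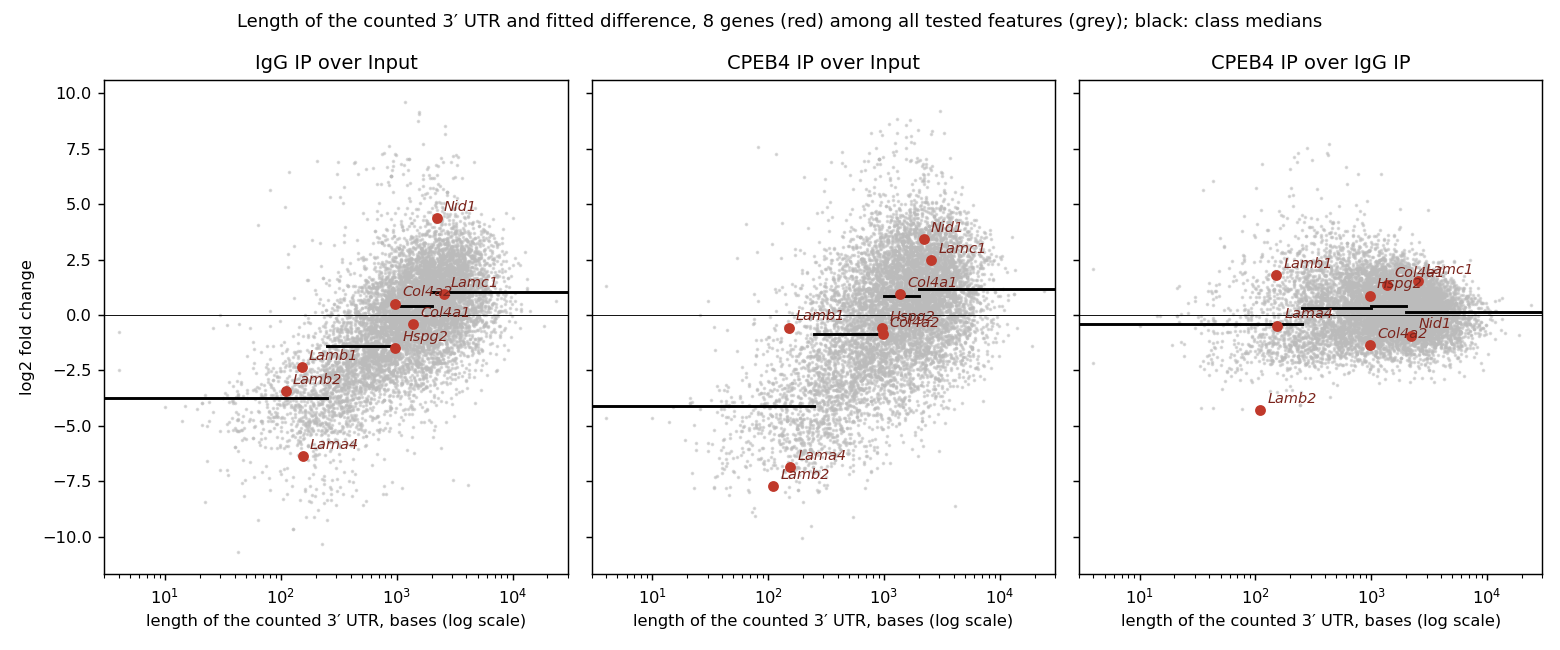
Fitted log2 fold change of every tested feature (grey) and of the 8 genes (red) against the length of the counted 3′ UTR in bases on a log axis, with black bars at the median of each length class; Lamb2 and Lama4 depend on the prior count where a group held 3 counts or fewer. In both comparisons with Input the class medians climb with length, from -3.77 to 1.04 in the IgG IP and from -4.12 to 1.19 in the CPEB4 IP, and over IgG IP they stay between -0.40 and 0.42.

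Of 68 other basement membrane genes, 40 were tested. Against the IgG IP, 1 was higher in the CPEB4 IP and 0 lower, beside 4.57% of all features higher and 1.3% lower. At an unadjusted p under 0.05, 6 were higher and 2 lower, beside 1283 and 558 of all 8680 features. The median log2 fold change was 0.26, against 0.24 over all features. With the replicate number as a block, 3 were higher (Sdc4, Dag1 and Serpinh1) and 1 lower (Sparc), and the number of all features called there is not given here. With the library number series as a block 3 were also higher and 1 lower, beside 661 and 220 of all 8680 features. The gene that rose was Sdc4, the syndecan-4 receptor that binds laminin and fibronectin through heparan sulphate. Sdc4 stood at 1914, 3128, 1699 and 1376 CPM in the CPEB4 IP, at 323, 410.4, 346 and 185 CPM in the IgG IP and at 133, 177, 163 and 124 CPM in Input. It was higher by 2.69 in log2 units over IgG IP (SE 0.36, adjusted p = 0.000686) and by 3.77 over Input (SE 0.37, adjusted p = 6.73e-07). The call over IgG IP was kept under 26 of 27 alternatives and was lost in replicates 3 and 4 alone (2.60, adjusted p = 0.14). Dag1, the dystroglycan receptor of laminin, stood at 376, 384, 561 and 529 CPM in the CPEB4 IP and at 124, 39.5, 137 and 170 CPM in the IgG IP. Its value over IgG IP was 1.94 (SE 0.65, adjusted p = 0.0901), or 2.18 with the replicate block (adjusted p = 0.0343). Over Input it was higher by 4.30 (SE 0.71, adjusted p = 9.96e-05).

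Among other components, Sparc, a collagen-binding matricellular protein, averaged 353 ± 49.4 CPM in the CPEB4 IP and 763 ± 294 CPM in the IgG IP (SD, n = 4). Its groups did not overlap, and the log2 value was -1.11 (SE 0.33, adjusted p = 0.0568), or -1.07 with the replicate block (adjusted p = 0.0371). Serpinh1, the collagen chaperone Hsp47, was at 2.40 over IgG IP (SE 0.97, adjusted p = 0.156), or 2.50 with the replicate block (adjusted p = 0.0442). Against Input, 12 of the 40 were higher in the CPEB4 IP and 7 lower, beside 27.6% and 26.3% of all features, with a median of 0.83 against 0.29 over all features. By role these were 5 higher and 1 lower of 10 tested receptors, 2 and 1 of 8 other components and 5 and 5 of 20 genes of folding, secretion and cross-linking. Lower genes included P3h4, a partner of lysyl hydroxylase in collagen modification (-4.89, adjusted p = 3.17e-06), and Plod1, a lysyl hydroxylase (-3.58, adjusted p = 4.3e-06). Mia3, which loads collagen into transport vesicles (-2.80, adjusted p = 0.000426), and Loxl1, a lysyl oxidase relative (-2.61, adjusted p = 0.000184), were also lower. Itga7, an integrin alpha chain for laminin, was lower at -2.75 (adjusted p = 0.000366), and its feature overlaps Mettl7b on the opposite strand. Sec23a, a COPII coat subunit, was higher by 2.59 (adjusted p = 0.00138). These 6 genes were called in the same direction in the IgG IP, where P3h4 was at -3.99, Plod1 at -2.44, Mia3 at -2.94, Loxl1 at -2.64, Itga7 at -3.11 and Sec23a at 1.87 over Input, and none was called over IgG IP. Itgb1, the shared integrin beta chain, was higher by 1.08 (adjusted p = 0.00921), a call lost without IgG IP replicate 3 (0.77, adjusted p = 0.107), IgG IP replicate 4 (0.78, adjusted p = 0.0908), or replicate 3 or 4 of all groups (0.059 and 0.0585). Library totals (0.0532), no filter (0.154) and a mean count of at least 50, where the value was 0.56 (0.127), also ended it. Agrn (agrin, 0.75), Col18a1 (collagen XVIII, -0.73) and Pxdn (peroxidasin, 1.68) did not pass over Input (adjusted p = 0.516, 0.578 and 0.152), and Itga6 had too few counts to test. In the IgG IP, 8 of the 40 were higher and 7 lower than in Input, beside 17.5% and 23.9% of all features, with a median of 0.61 against -0.07 over all features. Collagen IV chains outside the 10 genes were scarce, and 1 of 4 (Col4a5) was tested, which did not pass in any comparison.

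The features whose log2 CPM followed Lamc1 most closely over the 12 libraries were Khdrbs1, Prosc, Aebp2, Klhl9 and Igfbp4, with Pearson's r from 0.967 to 0.984 among 4272 features. Among those most like Lamb2 were Gm2000, Nudt9, Polr1a and Atp6v0d1, with r from 0.947 to 0.959 among 4273 features. The libraries fall into 3 groups and share depth differences, so these values describe likeness of pattern only.

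The interaction term of the authors' deposited table, which corresponds to CPEB4 IP over IgG IP, gave Lamc1 a log2 value of 1.19 (SE 0.28, adjusted p = 0.00138). In the authors' deposited table the other positive calls were Lamb1 at 1.48 (unadjusted p = 0.0276, adjusted p = 0.183) and Col4a1 at 1.04 (unadjusted p = 0.0131, adjusted p = 0.118). Negative calls in the authors' deposited table were Col4a2 at -1.71 (unadjusted p = 0.0142, adjusted p = 0.122), Nid1 at -1.27 (unadjusted p = 0.047, adjusted p = 0.246) and Lamb2 at -4.38 (unadjusted p = 0.00864). Lama2, Lama4, Nid2 and Hspg2 carried no call in the authors' deposited table. Over all 19051 features with an interaction fit in the authors' deposited table, 433 were called higher and 624 lower. Among the called genes named here, only Lamc1 had an adjusted p under 0.05, and Lamb2 had no adjusted p. The deposited calls therefore do not follow an adjusted p of 0.05. The comparisons of the CPEB4 IP and of the IgG IP with Input share the Input libraries. The deposited calls rest on the same counts as the values above.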

How the data were processed

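Reads per 3′ UTR were analysed in 12 libraries. The authors deposited raw counts per 3′ UTR on mm10 with Ensembl transcript identifiers, and the submitters' processing notes name featureCounts, DESeq2 1.22.1, Bowtie2 2.2.2 and Bowtie 1.2.3. Step order, annotation release and strand setting are not given in the sources used here. Also deposited were log2 normalised counts, not used for tests, and the authors' DESeq2 log2 fold changes, p-values and adjusted p-values. Calls (1, 0 or -1) and Wald statistics are scores that the authors deposited. All per-library columns were mapped to samples by their names.

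The test used edgeR 4.0.16 in R 4.3.3. Features passed filterByExpr (minimum count 10, minimum total 15), libraries were scaled by TMM, and all 12 entered 1 quasi-likelihood model with group coefficients. P-values were adjusted by Benjamini-Hochberg over 8680 features. The SE is the size of the log2 fold change over the square root of F, and the prior count was 0.125. Where a group held 1 to 3 counts, a ratio of counts per scaled library size stands with an exact 95% interval. Such intervals, and the floors, cover counting error only, because PCR copies without molecular identifiers are not independent molecules. Per the labels there were 12 or 18 PCR cycles, without saying for which library. Exact permutation tests used Python 3.11.15 with scipy 1.17.1. Alternatives included DESeq2 1.42.0, other scalings and filters, blocks, subsets and left-out libraries. The model was tested on simulated data.

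Whether replicates came from separate cultures is not in the labels. The p-values therefore measure the spread of these libraries alone, and this may be technical. Between IgG IP libraries, chi-square per degree of freedom was 1.63 and 1.64 within replicates 1 and 2 and within 3 and 4, and 13.9 to 16.3 across. In CPEB4 IP it was 4.57 and 3.09 within these pairs and 20.1 to 33.8 across, and in Input 10.9 and 25.9 within and 32.6 to 40.7 across. Deviations from group means of same-numbered libraries correlated over 0.1 in all 4 pairs of CPEB4 IP with IgG IP (0.181 to 0.321) and in 11 of 12 pairs of all groups (0.0717 to 0.321). Different numbers of one series correlated at 0.0563 to 0.285. No label states a pairing, so blocked values stand beside results they change.

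The members and lists were chosen with earlier results of these data known. All members were named. Other basement membrane genes were named if called in CPEB4 IP over IgG IP or over Input (at most 8 by adjusted p), with Agrn, Col18a1, Sparc, Dag1, Itgb1, Itga6, Serpinh1 and Pxdn added. For likeness, the 5 features with the highest Pearson's r (prior count 2, mean log2 CPM at or above the median) were named. Marker lists of macrophages, muscle, and Schwann cells or neurons summed to 23.7 to 170, 8.65 to 326 and 7.08 to 86.8 CPM per library. In the IgG IP and CPEB4 IP the endothelial list summed to 12.1 to 24.8 and 4.01 to 18.9 CPM. Some genes that these rules cover are not reported here. Sequence elements of the 3′ UTRs were not analysed here.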

Additional observations from a re-analysis of the deposited data

Results flagged for a closer look

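In 4 of 30 gene and group combinations, 1 library stood apart from the other 3 of its group by Dixon's criterion, which chance alone meets in about 1 of 20 groups of continuous values. That rate does not hold for 3 of the 4, in which the other libraries were all at 0 and any count stands apart. Col4a2 was at 92.0 CPM in CPEB4 IP replicate 2, against 123.9 to 127.6 CPM in the other CPEB4 IP libraries. Without that library, Col4a2 in CPEB4 IP over IgG IP moved from -1.36 to -1.16 on the log2 scale. Nid2 was at 13.5 CPM in Input replicate 1 and at 0 in the other Input libraries. Lama2 was at 3.26 CPM in Input replicate 4 and at 13.7 CPM in IgG IP replicate 3, each on 5 counts or fewer, with the other libraries of both groups at 0.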

How the results depend on the processing

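The number of the 10 genes called in CPEB4 IP over IgG IP was 3 of 8 tested, where 510 of 8680 features were called. It was 5 of 7 tested among the 3208 tested features with a mean count of at least 50, and how many of those were called is not given here. By DESeq2's Wald test it was 5 of 8, where 1003 of 8680 features were called. With only the 8 libraries compared it was 5 of 6, where 2086 of 6358 features were called. In each case Col4a2 and Nid1 were added as lower. The number was 4 with the replicate block and with the library number series as a block (Col4a2 added). All features called numbered 881 of 8680 with the series block and are not given here for the replicate block. The number of the 10 genes called was 2 with DESeq2 size factors, where 474 of all features were called. There Lamc1 was higher, Col4a2 lower and Lamb1 and Col4a1 were lost. The number was also 2 without the Lars2 feature and with no filter, Lamb1 being lost, and all features called there are not given here. It was 0 in replicates 3 and 4 alone, where 0 of all features passed (at an unadjusted p under 0.05, 3 of the 10 genes were higher and 0 lower), and 0 to 4 when replicates or libraries were left out. It was 0 without replicate 1, replicate 2, IgG IP replicate 3 or IgG IP replicate 4. All features called there numbered 77, 38, 101 and 101, in that order. The replicate block changed no other call of the 10 genes, and 7 of 12 libraries correlated best with their own number.

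Against Input, 5 calls in the CPEB4 IP became 8 in replicates 1 and 2 alone (4 to 6 with left-out libraries, 5 with the replicate block). All features called numbered 4676 of 8680, and 3744 to 5676 with left-out libraries. Their number in replicates 1 and 2 alone is not given here. The 6 calls in the IgG IP became 3 in replicates 3 and 4 alone (3 to 6 with left-out libraries, 3 without replicate 1, 6 with the block). All features called in the IgG IP numbered 3594 of 8680, 2394 of 8906 in replicates 3 and 4 alone and 2710 to 4689 with left-out libraries. In CPEB4 IP over Input, Lamc1, Nid1 and Lama4 kept their calls in all 27 alternatives.

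Signs turned for Lama4 in CPEB4 IP over IgG IP with library totals (0.0076) and with left-out libraries (-1.20 to 0.44), for Col4a2 in CPEB4 IP over Input in replicates 3 and 4 alone (0.10), for Col4a1 in IgG IP over Input with left-out libraries (-0.59 to 0.11) and for Col18a1 in CPEB4 IP over Input in replicates 3 and 4 alone (0.58) and with left-out libraries (-1.22 to 0.019, positive without Input replicate 1). With 1 count added in place of 0.5, Lamb1 to Lamb2 in IgG IP over Input became -0.077 and Nid1 to Nid2 in CPEB4 IP over IgG IP 0.20. The latter was -1.09 in replicates 1 and 2 alone and 0.80 in replicates 3 and 4 alone. The cause was not tested.

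All features called in CPEB4 IP over IgG IP numbered 510 of 8680, and 1003 of 8680 by DESeq2 and 881 of 8680 with the series block. They numbered 2086 of 6358 with 8 libraries and 38 to 1162 with left-out libraries. With a mean count of at least 50, features called against Input numbered 2482 for the CPEB4 IP (4676 otherwise) and 2230 for the IgG IP (3594 otherwise), fewer features being tested. The 1 other basement membrane gene called over IgG IP became 4 with either block and 9 of 33 tested with 8 libraries. It became 0 in replicates 3 and 4 alone and 1 to 7 with left-out libraries. The low IgG IP depth limits Lama4, Lamb2 and Lamb1.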
